A study of Mus musculus with 6 samples.

Results

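The genes described here are 10 markers of mesothelial cells, chosen by name: Msln, Upk3b, Upk1b, Krt7, Krt8, Krt18, Krt19, Wt1, Muc16 and Lrrn4. Of these, 9 had a row among the 23946 gene symbols of the deposited table, and Muc16 was not analysed here. All 9 passed an FPKM (fragments per kilobase of transcript, scaled to the number of aligned fragments) of 1 or more in some library, as did 13064 genes of the table.

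RNA was sequenced from macrophages that had been sorted from the omentum (OM) and from the mesenteric adipose tissue (MY) of C57BL/6 mice. The naive libraries came from mice that had received no cancer cells, and the others from mice 24 h or 7 d after an intraperitoneal injection of ID8 cells, a mouse ovarian carcinoma line derived from ovarian surface epithelium. No mutant allele or transgene of the mice is given in the labels, and a library from mice injected without ID8 cells is not among the 6, so that the injection and the cells cannot be told apart. The study's methods describe omenta pooled from 3 mice per group, dissociation with an adipose tissue kit, and a gate on CD45, CD11b and the antigen encoded by Emr1 (now Adgre1), which mark leukocytes, myeloid cells and mouse macrophages. Each of the 6 groups had 1 library. No difference below therefore has a replicate check, a standard deviation or a p-value, and each describes a pair of libraries.

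The mesothelium is the single layer of flat cells that covers the omentum, the mesentery and the other organs of the peritoneal cavity. It arises from the lateral plate mesoderm, yet its cells carry simple epithelial keratins, and they keep the transcription factor Wt1 and surface glycoproteins such as mesothelin. Macrophages are not known for these genes, and ovarian surface epithelium, which is continuous with the peritoneal mesothelium, shares many of them. In RNA from a sorted population, more cells of a type and more RNA per cell cannot be told apart.

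On the mouse assembly NCBIM37 (mm9) with the GENCODE M1 annotation, the members lay on 6 chromosomes. Msln spanned chr17:25885559-25891272 on the reverse strand, Upk3b chr5:136514366-136521173 on the forward strand and Upk1b chr16:38773297-38800316 on the reverse strand. Wt1 at chr2:104966686-105013773 (forward) and Lrrn4 at chr2:132694041-132706627 (reverse) shared a chromosome. The type II keratin genes Krt7 (chr15:101241474-101260744, forward) and Krt8 (chr15:101827142-101834773, reverse) and the type I gene Krt18 (chr15:101858647-101862457, forward) shared another. Between Krt8 and Krt18 lay 23873 bases, and between Krt7 and Krt8 566397 bases. Krt19 stood apart at chr11:100002124-100009979 (reverse). No other coding gene shared an exact stretch of 75 bases with the members' transcripts. A search of the assembly for matches of at least 75 bases without a mismatch found none outside the members' own genes. That search drops a longer match that holds a mismatch, so exact stretches within imperfect copies could have been missed.

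The 250 bases upstream of the transcript start are shown for Upk3b, the surface marker with the highest FPKM. They are also shown for the neighbouring partners Krt8 and Krt18, which were both higher in the injected omental libraries than in naive OM. The sequences are from RefSeq (GRCm38.p6), which held an entry for 5 of the 9 members, and each of the 3 matched exactly 1 place on the members' chromosomes of NCBIM37. They run 5′ to 3′ on the strand of the gene, and capitals mark the letters of a searched motif.
Upk3b (chr5:136514116-136514365, forward): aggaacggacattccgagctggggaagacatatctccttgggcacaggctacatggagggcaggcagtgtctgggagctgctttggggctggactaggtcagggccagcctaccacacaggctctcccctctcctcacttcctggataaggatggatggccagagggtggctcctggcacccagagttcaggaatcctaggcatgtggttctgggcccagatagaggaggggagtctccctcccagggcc
Krt8 (chr15:101834774-101835023, reverse): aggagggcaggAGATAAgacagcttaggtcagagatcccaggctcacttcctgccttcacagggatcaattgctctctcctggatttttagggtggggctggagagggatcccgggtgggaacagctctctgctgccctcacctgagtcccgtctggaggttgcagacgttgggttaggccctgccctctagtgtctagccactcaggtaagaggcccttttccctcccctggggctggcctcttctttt
Krt18 (chr15:101858397-101858646, forward): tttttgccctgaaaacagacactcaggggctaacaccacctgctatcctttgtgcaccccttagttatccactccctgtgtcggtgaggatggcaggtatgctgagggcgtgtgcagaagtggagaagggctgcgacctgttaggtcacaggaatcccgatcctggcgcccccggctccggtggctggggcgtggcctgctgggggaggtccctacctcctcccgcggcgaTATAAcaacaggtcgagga
The capitals in Krt8 are the GATA element AGATAA from base 12, and those in Krt18 the TATA-box core TATAA from base 232. Among all 32851 upstream windows of the same length, 9.99% held AGATAA and 22.8% held TATAA on either strand. None of GGGCGG (the GC box, in 32.7% of windows), CCAAT (33.8%) and GCGTGGG (a core bound by EGR1 and WT1, 4.3%) was found in these 3 windows on either strand, and none of the searched motifs was found in that of Upk3b. The share of G and C was 60.8% for Upk3b, 58% for Krt8 and 60.4% for Krt18, against a median of 52.4% over all windows. A match is a description of letters and not a binding site.

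The mesothelial markers were detected in the naive omental library of sorted cells and were near 0 in every mesenteric library. At 24 h and 7 d most of them stood several-fold higher in the omental libraries, while each stayed below 1 FPKM in the mesenteric libraries. The FPKM of the 9 members summed to 101.4 in naive OM, 1018 in OM 24 h and 1028 in OM 7 d, against 1.45, 1.46 and 1.55 in the corresponding mesenteric libraries. As a percentage of all FPKM of a library, the members made up 0.0163% in naive OM, 0.143% at 24 h and 0.183% at 7 d, and at most 0.00029% in a mesenteric library. The members were thus a minor part of each library even where they were highest.

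**Figure D1:**
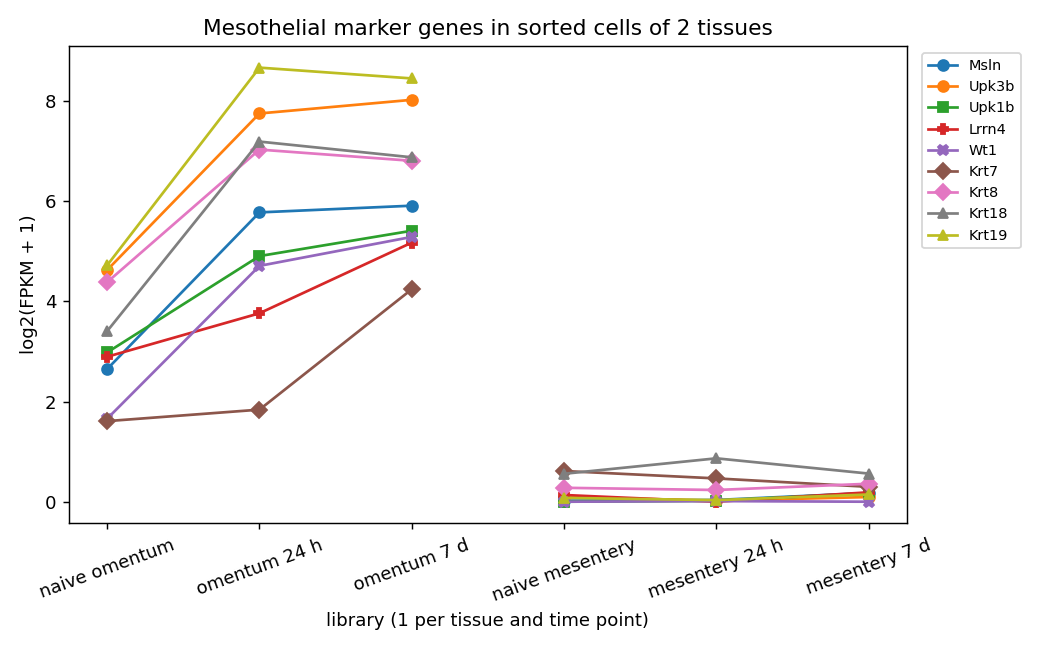
Level of each of the 9 mesothelial markers as log2(FPKM + 1) in the naive, 24 h and 7 d libraries of the omentum (left) and of the mesenteric adipose tissue (right), with 1 point per library, no replicates, and lines joining the libraries of a tissue. The omental points of a gene lie above its mesenteric points, and Krt7 stays near its naive level at 24 h (2.05 and 2.58 FPKM) before it reaches 17.9 FPKM at 7 d.

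Among the surface glycoproteins, Msln encodes mesothelin, a GPI-anchored protein that binds the mucin encoded by Muc16. Msln stood at 5.27 FPKM in naive OM, 53.8 FPKM at 24 h and 59.2 FPKM at 7 d. In the mesenteric libraries it stood at 0.015, 0.0247 and 0.128 FPKM. Both injected omental libraries were thus more than 10 times the naive one, at ratios of FPKM of 10.2 and 11.2, and every omental value was above every mesenteric value.

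Upk3b encodes a member of the uroplakin family that is best known from the urothelium and is also a marker of mesothelial cells. Its FPKM was 23.7 in naive OM, 214.6 at 24 h and 259.4 at 7 d, and no mesenteric library exceeded 0.0682 FPKM. On the log2(FPKM + 1) scale, Upk3b was higher than in naive OM by 3.13 at 24 h and by 3.40 at 7 d. Ranked by FPKM within a library, Upk3b moved from position 3814 in naive OM to position 337 at 7 d.

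Upk1b, a tetraspanin that pairs with uroplakin 3 proteins in the urothelium, stood at 6.90, 29.0 and 41.5 FPKM in the omental libraries from naive to 7 d. It was listed at 0 in naive MY and at 0.013 and 0.127 FPKM in MY 24 h and MY 7 d. Its difference from naive OM was 1.92 at 24 h and 2.43 at 7 d on the log2(FPKM + 1) scale, lower than that of Msln and Upk3b. Within each omental library the ratio of Upk3b to Msln stayed between 3.99 and 4.50, whereas that of Upk3b to Upk1b was 3.44 in naive OM, 7.41 at 24 h and 6.24 at 7 d.

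Lrrn4 encodes a leucine-rich repeat membrane protein of neurons that is also found in mesothelial cells. It stood at 6.44 FPKM in naive OM, 12.6 FPKM at 24 h and 35.1 FPKM at 7 d, and at most 0.139 FPKM in a mesenteric library. At 24 h Lrrn4 was 1.95 times its naive FPKM, under the 2-fold limit, and at 7 d it was 5.45 times. The 7 d library held 2.79 times the Lrrn4 FPKM of the 24 h library.

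Wt1 encodes the zinc-finger transcription factor that marks the mesothelium from the embryo onwards. Its FPKM was 2.16 in naive OM, 25.2 at 24 h and 38.1 at 7 d. It was listed at 0 in naive MY and MY 7 d and at 0.00867 FPKM in MY 24 h. The ratio of FPKM to naive OM was 11.7 at 24 h and 17.7 at 7 d, the latter the highest of the 9 members. Relative to Msln in the same library, Wt1 stood at 0.409 in naive OM, 0.467 at 24 h and 0.643 at 7 d.

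Keratin filaments are built from pairs of a type I and a type II keratin, and simple epithelia use Krt8 and Krt7 (type II) with Krt18 and Krt19 (type I). Krt19 had the highest FPKM of the members in each omental library, at 25.4 in naive OM, 405.6 at 24 h and 349.1 at 7 d. Its mesenteric values were 0.0546, 0.0227 and 0.105 FPKM. Krt19 moved from position 3625 in naive OM to positions 261 and 229 among all genes of the 24 h and 7 d libraries.

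Krt18 stood at 9.60 FPKM in naive OM, 145.1 FPKM at 24 h and 116.5 FPKM at 7 d. Its mesenteric values lay between 0.472 and 0.823 FPKM. The ratio of FPKM to naive OM was 15.1 at 24 h and 12.1 at 7 d.

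Krt8, which encodes the partner of keratin 18, stood at 19.9 FPKM in naive OM, 129.8 FPKM at 24 h and 111.0 FPKM at 7 d. Its mesenteric values lay between 0.176 and 0.282 FPKM. The ratio of Krt8 to Krt18 was 2.07 in naive OM and close to 1 after injection, at 0.895 at 24 h and 0.952 at 7 d. Krt8 was thus above Krt18 in naive OM and slightly below it in both injected omental libraries.

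Krt7 differed from the other keratins. It stood at 2.05 FPKM in naive OM and at 2.58 FPKM at 24 h, a ratio of 1.26, and reached 17.9 FPKM at 7 d, 8.74 times its naive FPKM. Its mesenteric FPKM of 0.529, 0.381 and 0.229 were the nearest to the omental ones among the members. The ratio of Krt19 to Krt7 was 12.4 in naive OM, 157.4 at 24 h and 19.5 at 7 d.

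Comparing omental macrophages 24 h after injection with naive ones asks how early the omental population differs once ID8 cells are in the cavity. On the log2(FPKM + 1) scale, 7 of the 9 members were at least 2-fold higher at 24 h and none was lower by that much, while 11.9% of all expressed genes were at least 2-fold higher and 6.45% at least 2-fold lower. The median difference of the members was 3.05, against a median near 0 for all expressed genes. Krt19 had the largest difference, 3.95, followed by Krt18 at 3.78. The members under 2-fold were Krt7, with a difference of 0.23, and Lrrn4, with 0.87.

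At 7 d against the same naive library, all 9 members were at least 2-fold higher, with a background of 11.0% of expressed genes. Their median difference was 3.26 on the log2(FPKM + 1) scale, and the single differences ran from 2.28 for Lrrn4 to 3.73 for Krt19. Because the 24 h and the 7 d comparison share the naive library, a low value in that library would enter both.

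The direct comparison of OM 7 d with OM 24 h does not use the naive library. In it, 2 of the 9 members, Krt7 and Lrrn4, were at least 2-fold higher at 7 d, where 7.03% of expressed genes were, and none was at least 2-fold lower, where 4.52% were. The log2(FPKM + 1) difference was 2.40 for Krt7 and 1.41 for Lrrn4. Wt1, Upk1b, Upk3b and Msln had differences between 0.13 and 0.58. Krt8, Krt18 and Krt19 had small negative differences of -0.22, -0.31 and -0.22, which became 0.12, 0.03 and 0.13 when each library was rescaled to the same FPKM sum. That step moved the median of all expressed genes from 0.05 to 0.36.

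**Figure D2:**
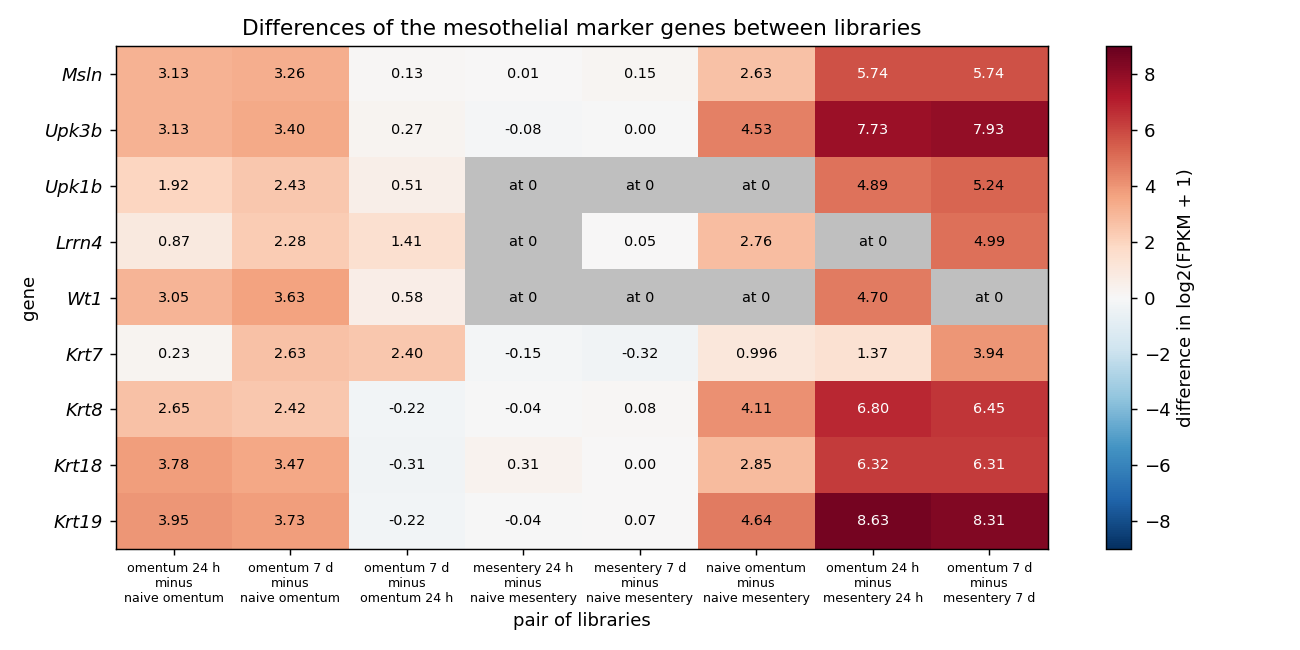
Difference in log2(FPKM + 1) between the 2 libraries of each comparison (columns) for each mesothelial marker (rows), where grey cells marked "at 0" have a library in which the gene is listed at 0. Krt7 and Lrrn4 are the members under a difference of 1 at 24 h in the omentum (0.23 and 0.87), and the mesenteric comparisons over time lie between -0.32 and 0.31.

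In the mesenteric adipose tissue all members lay below 1 FPKM at each time. Values under 1 FPKM cannot differ by 2-fold on the log2(FPKM + 1) scale, so the count of 0 members past that limit at 24 h and at 7 d was fixed by the scale, and nothing is read from it against the 4.32% and 2.79% of expressed genes past the limit in either direction. The largest differences from naive MY on this scale were 0.31 for Krt18 at 24 h and -0.32 for Krt7 at 7 d. In FPKM the low values did vary, as in Msln from 0.015 in naive MY to 0.128 in MY 7 d, and how many reads such values rest on is not known.

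Between the tissues, all 9 members had each omental library above each mesenteric library, which held for 16.7% of expressed genes. In 8 of the 9, all but Krt7, the lowest omental value exceeded the highest mesenteric value by at least 2-fold on the log2(FPKM + 1) scale, which held for 2.73% of expressed genes. On that scale the gap between the lowest omental and the highest mesenteric value was widest for Krt19, at 4.58, and Upk3b, at 4.53, and it was 1.65 for Wt1. As a ratio of FPKM the gap was 347.6 times for Upk3b, 248.5 times for Wt1 and 241.2 times for Krt19, over mesenteric values near 0. Krt7 had the narrowest gap on both scales, at 3.88 times in FPKM. Without the naive libraries, all 9 members passed the 2-fold limit, against 7.22% of expressed genes. Without the 24 h libraries 8 did, against 4.41%, and without the 7 d libraries 8 did, against 3.59%.

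The separation of the tissues was present without cancer cells. In naive OM against naive MY, 8 of the 9 members were at least 2-fold higher on the log2(FPKM + 1) scale, with a background of 8.18%. The remaining one was Krt7, with a difference of 0.996. The median difference of the members was 2.85, and Krt19 at 4.64, Upk3b at 4.53 and Krt8 at 4.11 led the list. At 24 h and at 7 d all 9 members were at least 2-fold higher in OM than in MY, with backgrounds of 13.9% and 14.1%, and the median difference was 5.74 at both times. Because Lrrn4 is listed at 0 in MY 24 h and Wt1 in MY 7 d, their differences there are no fold, and without the member at 0 the median over the other 8 was 6.03 at both times.

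The makeup of the members' summed FPKM differed between the omental libraries. Krt19 and Upk3b together led it in each of them, with 25.0% and 23.4% in naive OM, 39.8% and 21.1% at 24 h, and 34.0% and 25.2% at 7 d. The share of Msln hardly moved, at 5.20%, 5.29% and 5.76%. Krt8 went from 19.6% in naive OM to 12.7% and 10.8%, and Lrrn4 from 6.35% to 1.24% at 24 h and 3.41% at 7 d. Krt7 contributed 2.02% in naive OM, 0.253% at 24 h and 1.74% at 7 d.

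**Figure D3:**
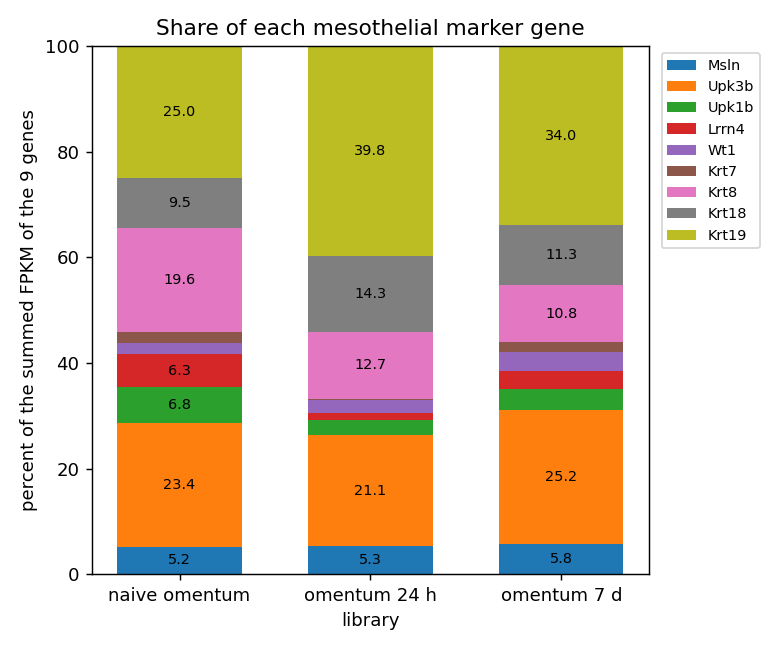
Share of each mesothelial marker in the summed FPKM of the 9 markers (percent, stacked bars) in the 3 omental libraries. Krt19 takes 25.0% of the sum in naive OM and 39.8% at 24 h, while the share of Krt8 goes from 19.6% to 12.7%.

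Over the 6 libraries, the log2(FPKM + 1) values of a member correlated with the mean of the other 8 with a Pearson r between 0.981 and 0.999, except for Krt7 with 0.867. These correlations are a description over 6 points that split into omental and mesenteric libraries. Among 7989 other genes that reached 10 FPKM in some library, 38 had an r of at least 0.99 with the mean of the members over the same 6 libraries. The closest was Pcolce, which encodes an enhancer of procollagen processing and stood at 14.9, 104.2 and 138.0 FPKM in OM and at no more than 0.461 FPKM in MY. It was followed by the chloride channel gene Ano1 (r of 0.9989), the claudin gene Cldn15 (0.9985), the Hedgehog pathway receptor gene Smo (0.9982) and the myosin gene Myo1d (0.9979). The next 5 were Olfml2b, Vcl, Espn, Nnmt and Cryab. The choice of scale sets this order, since 5 of the 10 were among the first 10 after rescaling to an equal sum and none was on unlogged FPKM.

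Of 12 further genes known from mesothelial cells, 11 were expressed. On the log2(FPKM + 1) scale, 6 of these 11 were at least 2-fold higher at 24 h in OM and 1 was lower (median difference 1.40), and 8 were higher and none lower at 7 d (median 2.19). Of all expressed genes, 11.9% were higher and 6.45% lower at 24 h, and 11.0% were higher at 7 d. Gpm6a, a membrane glycoprotein gene, followed the pattern of Msln and Upk3b, at 6.46, 40.2 and 66.2 FPKM in OM and no more than 0.740 FPKM in MY. Bnc1, which encodes the zinc-finger protein basonuclin, stood at 0.237, 2.27 and 7.25 FPKM in OM and was listed at 0 in all 3 mesenteric libraries.

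Other genes of this list were lower or little different at 24 h and high at 7 d, as Krt7 was. Nkain4 stood at 18.9 FPKM in naive OM, 14.8 FPKM at 24 h and 89.3 FPKM at 7 d. Rspo1, which encodes a Wnt pathway agonist, stood at 7.23, 9.80 and 60.4 FPKM. Igfbp5, an IGF binding protein gene that fibroblasts also express, stood at 9.50 FPKM in naive OM and 31.4 FPKM at 7 d, and was the gene of the list that was at least 2-fold lower at 24 h, with a difference of -1.81 in log2(FPKM + 1).

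A few genes of the list differed from the members between the tissues. Aldh1a2, the retinaldehyde dehydrogenase gene, was lower in each omental library (26.8 to 35.4 FPKM) than in each mesenteric library (59.0 to 80.7 FPKM). Slpi, a protease inhibitor gene that myeloid cells also express, stood at 51.6, 173.0 and 58.8 FPKM in OM and 41.2, 95.4 and 82.0 FPKM in MY. Calb2, which encodes calretinin, a marker used in the pathology of mesothelioma, was listed at 0 in all 6 libraries, and an exact 0 in such a table can also be an estimate that failed. The label of the members as mesothelial thus rested on most but not all of the genes known from these cells.

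Among 7 transcription factor genes of the coelomic lining, 6 were expressed, of which 3 were at least 2-fold higher at 24 h and 4 at 7 d in OM and none was lower. The share of all expressed genes that were higher was 11.9% at 24 h and 11.0% at 7 d. Gata4 was listed at 0 in naive OM and stood at 25.9 FPKM at 24 h and 33.1 FPKM at 7 d. Gata6 stood at 2.06, 15.9 and 36.7 FPKM. Both belong to the GATA family that acts with Wt1 in mesothelial and gonadal tissue. Gata6 is also a gene of large peritoneal macrophages, and which of the sorted cells carried it was not tested.

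Some genes better known from the ovary and the other gonadal tissues were also higher in the injected omental libraries. Amhr2, the receptor gene for anti-Müllerian hormone, stood at 0.398 FPKM in naive OM, 222.9 FPKM at 24 h and 315.4 FPKM at 7 d. Star, which encodes a cholesterol carrier of steroid synthesis, stood at 0.90, 8.38 and 11.1 FPKM. Nr5a1, which encodes the steroidogenic factor of gonads and adrenals, stood at 0.0135, 8.85 and 14.1 FPKM, and Inha, the inhibin alpha gene, was listed at 0 in naive OM and stood at 5.26 and 24.1 FPKM after injection. Foxl2, a transcription factor gene of granulosa cells, was listed at 0 in naive OM and stood at 0.13 and 1.20 FPKM. Cyp11a1, which encodes the enzyme of the initial step of steroid synthesis, went the other way, at 3.20, 0.231 and 1.75 FPKM. The ratio of Amhr2 to Wt1 was 0.184 in naive OM, 8.86 at 24 h and 8.29 at 7 d.

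Of the 8 genes of this gonadal list, 6 were expressed. In OM, at least 2-fold differences at 24 h put 4 of them higher and 1 lower, against 11.9% and 6.45% of expressed genes. At 7 d 5 were higher, against 11.0% of expressed genes, and none lower. The summed FPKM of the list was 4.51, 245.7 and 367.6 in OM and between 0.502 and 0.992 in MY, and Cyp19a1 and Fshr were listed at 0 in all 6 libraries, which can also be a failed estimate. The part of this list in the difference of the mesothelial markers between naive and injected omenta was not tested.

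Markers of fibroblasts, the other stromal cells of the omentum, followed another order. The 8 fibroblast genes summed to 351.7 FPKM in naive OM, 224.1 FPKM at 24 h and 1201 FPKM at 7 d, and to between 11.3 and 20.5 FPKM in MY. At 24 h none of the 8 was at least 2-fold higher and 2 were lower, with a median difference of -0.67 in log2(FPKM + 1). Of all expressed genes, 11.9% were higher and 6.45% lower. At 7 d 5 of the 8 were higher, against 11.0% of expressed genes, and none lower, with a median of 1.09. In OM 7 d against OM 24 h all 8 were at least 2-fold higher, where 7.03% of expressed genes were.

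Thy1 was the fibroblast gene at least 2-fold lower in naive OM than in naive MY, and T cells express it too. The other 7 of the 8 were higher there, against 8.18% of expressed genes. Dcn, the decorin gene and the highest of the fibroblast genes, stood at 188.9, 108.9 and 781.6 FPKM in the omental libraries. The ratio of Dcn to Upk3b was 7.97 in naive OM, 0.508 at 24 h and 3.01 at 7 d. Krt7 and Lrrn4, the members at least 2-fold higher at 7 d than at 24 h, had their highest omental value at 7 d. So did the fibroblast sum, and so did the members Msln, Upk3b, Upk1b and Wt1. All of these members were lowest in naive OM, where the fibroblast sum was above that at 24 h. The part of fibroblasts in those values was not tested.

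**Figure D4:**
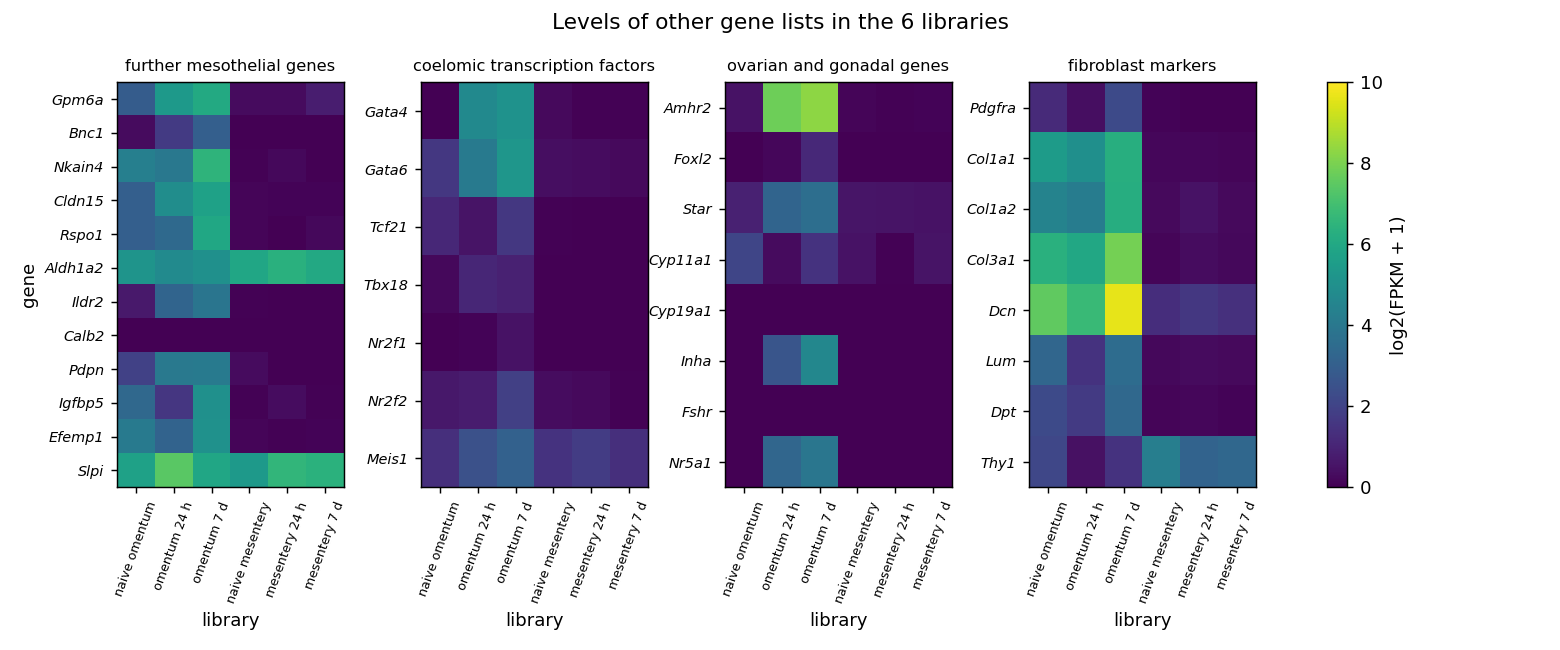
Level as log2(FPKM + 1) (colour) of the single genes of the further mesothelial list, the coelomic transcription factors, the gonadal genes and the fibroblast markers in each of the 6 libraries. Amhr2 and Gata4 are at or near the bottom of the scale in naive OM and bright at 24 h and 7 d, whereas Dcn is bright in naive OM and brightest at 7 d, and Aldh1a2 and Slpi are bright in both tissues.

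Immediate early and heat shock genes, which respond to tissue dissociation, also separated the tissues. Fos, Jun, Egr1, Hspa1a and Hspa1b summed to 1139, 2348 and 1787 FPKM in OM and to between 44.1 and 54.1 FPKM in MY. All 5 were at least 2-fold higher in OM than in MY at each of the 3 times. From naive to 7 d, 8.18%, 13.9% and 14.1% of expressed genes were. Over time in OM the classes differed. The immediate early genes were higher in both injected libraries than in naive OM, as the members were, with Fos at 729.8, 1715 and 1129 FPKM, Jun at 108.9, 178.0 and 214.6 FPKM and Egr1 at 239.0, 444.7 and 425.8 FPKM, although Fos at 24 h was the one value past 2-fold. Both heat shock genes were at least 2-fold lower at 24 h, where 6.45% of expressed genes were, and at 7 d. The part of this response in the values of the members, between tissues and over time, was not tested.

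The markers of the sort itself were present in each library. Ptprc, which encodes CD45, stood at 182.2, 105.8 and 124.4 FPKM in OM and between 157.8 and 208.3 FPKM in MY. Itgam, which encodes CD11b, stood at 91.2, 150.9 and 58.7 FPKM in OM and between 27.8 and 52.0 FPKM in MY. Emr1 stood at 27.4, 135.0 and 26.5 FPKM in OM and between 20.5 and 68.6 FPKM in MY. Of the 8 macrophage and sort markers, 6 were at least 2-fold higher at 24 h in OM, against 11.9% of expressed genes. None was higher or lower at 7 d, where 11.0% of expressed genes were higher, a pattern over time that the mesothelial markers did not share.

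Genes used as markers of other cell types were also detected. The 5 neutrophil markers in the table summed to 5828, 13573 and 14516 FPKM in OM and to at most 657 FPKM in MY. S100a8 and S100a9 made up most of the omental sums. In naive OM against naive MY, 3 of the 5 were at least 2-fold higher, where 8.18% of expressed genes were. Cxcr2 (5.14 and 4.56 FPKM) and Csf3r (6.21 and 5.99 FPKM) were not. All 5 were at least 2-fold higher at 24 h in OM, as 7 of the 9 members and 11.9% of expressed genes were. At 7 d 2 of the 5, S100a8 and S100a9, were higher, against 11.0% of expressed genes. B cell markers summed to 3967, 904 and 2447 FPKM in OM, and endothelial markers to 42.2, 9.53 and 32.3 FPKM, each lowest at 24 h. Most of the endothelial sum was Pecam1, at 37.8, 8.85 and 23.9 FPKM, while Cdh5, Tek and Vwf stayed below 1 FPKM in every library. T cell markers were also lowest at 24 h, at 87.5, 22.4 and 86.0 FPKM. Smooth muscle and pericyte markers summed to 17.0, 14.6 and 29.9 FPKM. None of the 4 expressed ones was at least 2-fold lower at 24 h, where 6.45% of expressed genes were. Unlike the members, T cell markers were higher in each mesenteric library, at 379 FPKM or more, than in any omental one. NK cell markers were too, at 192.2 FPKM or less in OM and 559 FPKM or more in MY. Adipocyte markers summed to 4.01 FPKM or less in every library. The part of these cell types in the values of the mesothelial markers was not tested.

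**Figure D5:**
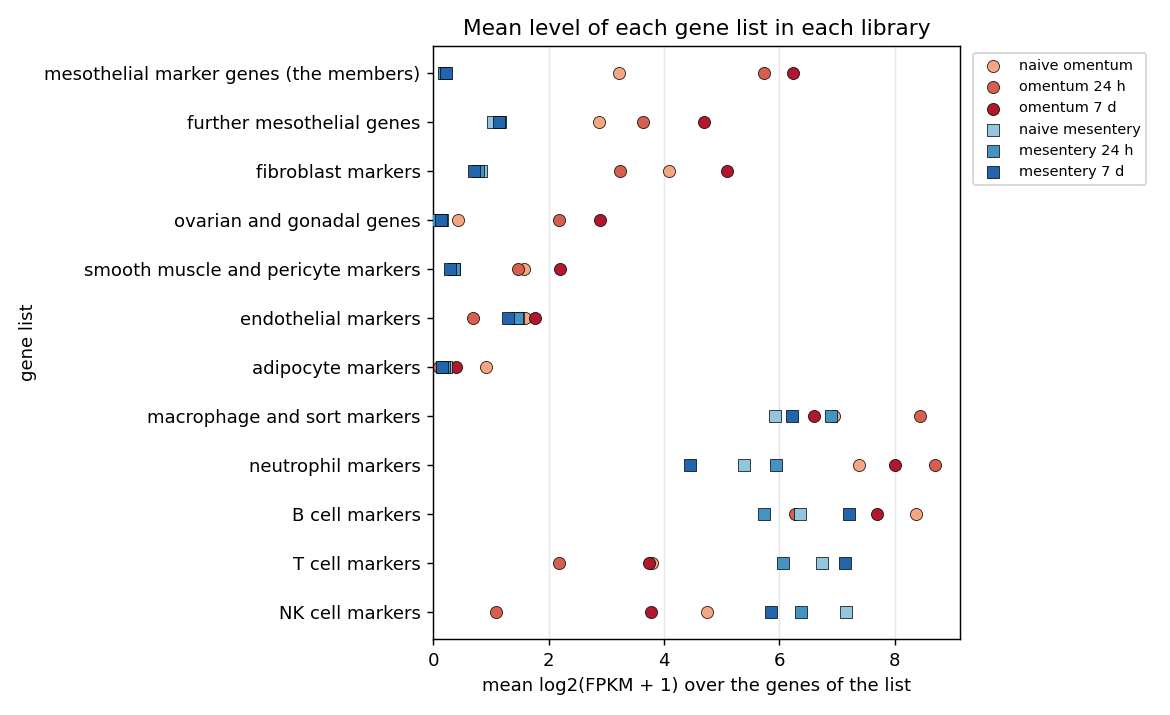
Mean log2(FPKM + 1) over the genes of each list in the 3 omental libraries (circles) and the 3 mesenteric libraries (squares), with 1 point per library. The mesothelial markers lie at 3.21 in naive OM, 5.74 at 24 h and 6.24 at 7 d and between 0.19 and 0.22 in MY, while T and NK cell markers lie higher in the mesenteric libraries.

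The libraries themselves differed in ways that bear on these levels. Their FPKM summed to between 526887 and 713863, highest in OM 24 h, and FPKM does not show how many reads a value rests on. Read from the commonest ratio of low FPKM, the approximate depth of naive OM was 0.871 times and that of OM 7 d 1.52 times that of naive MY, the ends of the range.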

How the data were processed

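RNA from sorted macrophages was measured in 6 libraries, 1 per group. Per the labels and the study's methods, the authors used FastQC 0.11.4 for read quality, STAR 2.4.2a for alignment to mm9 (NCBI37) under UCSC gene models, and Cufflinks for FPKM. The deposited table holds FPKM per gene symbol, which is scaled for length and library total and carries no counts, so depth is unknown and no count test was run. The authors' fold changes were not used.

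Differences between libraries were computed on log2(FPKM + 1) with Python 3.11.15, numpy 2.4.6 and pandas 2.3.3, for 8 comparisons. This scale understates differences of low genes. A gene that reached 1 FPKM in any library counted as expressed, and a difference of at least 2-fold on this scale was counted as higher or lower. Levels of genes at 0 are given as listed at 0, without a fold. The genes named are the members, the genes of the lists of other cell types and gene groups, and the 10 genes most like the members' mean by Pearson r, among those that reached 10 FPKM in any library. Of each list other than the members, the examples were picked after their values were seen. Members and lists were chosen with earlier results of these data known. Stretches of 75 bases were matched with blastn 2.17.0. The functions for differences, median-ratio rescaling and depth were run on simulated data, where the rules for counts and likeness were applied as well. Figures were drawn with matplotlib 3.10.9. Alternatives were pseudocounts of 0.1 and 5, filters on low values, rescaling by the median ratio and rescaling to a sum of 1000000.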

Additional observations from a re-analysis of the deposited data

How the results depend on the processing

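No median difference of the members that was at least 2-fold turned under the alternatives run. Of 148 alternative counts and medians, 138 stayed within 1.5-fold of the value reported. That share says little about stability, because many of these values could not move. Dropping the filter cannot change the members, since all 9 passed it. The filter at 5 FPKM left no member in the mesenteric comparisons over time, so their counts were 0 in advance. With a pseudocount of 0.1, the median log2 difference of the members was 5.55 for naive OM against naive MY, 8.01 for OM 24 h against MY 24 h and 8.02 for OM 7 d against MY 7 d, and 1 member, Upk1b (listed at 0 in naive MY), counted as at least 2-fold higher in MY 7 d. With a pseudocount of 5, these 3 medians were 1.25, 3.55 and 3.65, and those of OM 24 h and OM 7 d against naive OM were 2.44 and 2.59. Rescaling each library to a sum of 1000000 gave 6.43 for OM 7 d against MY 7 d. The pseudocount enters mainly through the mesenteric values near 0. Krt7 in naive OM against naive MY ranged from 0.35 to 1.77 over the alternatives, so its place under 2-fold depends on the pseudocount and the scaling. Of 410 alternative differences of single members, 336 were within 0.58 and none of those called at least 2-fold turned. Rescaling to an equal sum moved the median of all expressed genes to -0.16 for OM 24 h and to 0.13 for OM 7 d against naive OM. The share of expressed genes past 2-fold in either direction between OM 24 h and naive OM was 27.5% with a pseudocount of 0.1 and 8.92% with 5, against 18.3% as reported. No paired analysis was possible because each group has 1 library. The tissues were compared within each time point, and no test over the 3 times was made. Leaving out each time point in turn was chosen after the data were seen. It left all 9 members with every omental above every mesenteric library, against 25.1% to 28.5% of expressed genes. A gap of at least 2-fold was left for 8 to 9 members, against 3.59% to 7.22%. Low values in naive OM rest on an unknown number of reads.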

Other observations

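Most keratins outside the members differed by less than 2-fold from naive OM. On the log2(FPKM + 1) scale, of 7 other expressed keratin genes none was higher and 1 was lower at 24 h. The shares of expressed genes were 11.9% and 6.45%. At 7 d 1 was higher, against 11.0% of expressed genes, and 1 lower. Krt14, Krt15, Krt23 and Krt76 stayed at or below 2.13 FPKM, where this scale understates differences. In FPKM, Krt14 and Krt76 were above naive OM at 24 h and Krt15 and Krt23 below, and each was above it at 7 d. Krt80 had the highest FPKM of the 7, at 35.3 in naive OM, 41.6 at 24 h and 16.3 at 7 d. Its FPKM was 5.07, 12.4 and 6.05 in the corresponding mesenteric libraries. Krt222 stood at 13.9, 2.40 and 6.50 FPKM in OM and at no more than 1.55 FPKM in MY. Among relatives of the members by family, Upk2, Upk3a and Muc4 were listed at 0 in all 6 libraries, Upk1a stood at 2.19, 0.44 and 1.14 FPKM in OM, and 2 of 8 passed 1 FPKM in any library.

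Genes of epithelial junctions were more mixed. Of 14 such genes 10 were expressed, and 6 were at least 2-fold higher and 1 was lower at 24 h, while 5 were higher and none lower at 7 d against naive OM. Of all expressed genes, 11.9% were higher and 6.45% lower at 24 h, and 11.0% were higher at 7 d. The desmoglein gene Dsg2 stood at 0.048, 5.04 and 4.09 FPKM in OM, the claudin gene Cldn3 at 0.67, 6.62 and 12.1 FPKM, the tight junction gene Tjp1 at 0.15, 2.97 and 4.18 FPKM and the plakophilin gene Pkp2 at 0.023, 2.25 and 3.42 FPKM. Epcam, an adhesion molecule gene of most epithelia but not of mesothelium, stood at 13.0, 5.45 and 9.44 FPKM in OM and between 6.88 and 9.09 FPKM in MY, without the separation of the tissues that the members showed.

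Proliferation genes separated the tissues at 24 h only, unlike the members. At 24 h all 5 cell cycle genes were at least 2-fold higher in OM than in MY, where 13.9% of expressed genes were. Their median difference was 1.56 in log2(FPKM + 1). None of them was at least 2-fold higher in the naive or the 7 d pair, where 8.18% and 14.1% of expressed genes were. The 5 cell cycle genes summed to 65.9, 137.6 and 88.9 FPKM in OM and to 75.3, 39.8 and 91.4 FPKM in MY. Against naive OM, 3 of them were at least 2-fold higher at 24 h and none at 7 d, where 11.9% and 11.0% of expressed genes were.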
